A study of Mus musculus with 8 samples.

Results

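The genes described here encode the MHC class II molecules of the mouse and their chaperone, the invariant chain. They are H2-Aa, H2-Ab1, H2-Eb1, H2-Ea, H2-DMa, H2-DMb1, H2-DMb2, H2-Oa, H2-Ob and Cd74, 10 of the 21597 gene symbols on the array, and they were chosen by symbol alone. The array carried 16 probes for them, 15 of which belonged to the 9 H2 genes and 1 to Cd74. Expression was measured in whole pancreas of 8 female NOD mice, a strain that develops autoimmune diabetes, and each mouse was compared on its own two-color array with 1 pool of pancreas RNA from 8 NOD.B10 mice. All animals were 12 weeks old and untreated as far as the labels state. NOD.B10 (NOD.B10Sn-H2b/J) is a congenic strain that has the NOD background but carries the H2b haplotype of the B10 mouse in place of the H2g7 haplotype of NOD. On every array the NOD RNA was labeled with Cy5 (red) and that of the pool with Cy3 (green).

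MHC class II molecules are pairs of an alpha and a beta chain that carry peptides from endosomes to the surface of B cells, dendritic cells and macrophages, where CD4 T cells read them. H2-Aa and H2-Ab1 encode the chains of I-A, and H2-Ea and H2-Eb1 those of I-E. The I-A beta chain of NOD is the best known of the genetic risk factors of this strain. The invariant chain fills the groove during assembly and leaves a fragment, CLIP, that H2-DM (H2-DMa with H2-DMb1 or H2-DMb2) exchanges for peptide, and H2-O (H2-Oa with H2-Ob) restrains H2-DM. The transactivator Ciita switches on class II genes through a shared promoter module. The g7 and b haplotypes both lack an expressed I-E alpha chain, and RefSeq lists H2-Ea of the C57BL/6J mouse, another H2b strain, as a transcribed pseudogene.

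A probe that differs between NOD and the pool inside H2 may have met a different allele or a different amount of RNA. These alternatives cannot be told apart here, since the probe sequences and the NOD haplotype sequence were not among the sources used. Cd74 lies outside H2, on another chromosome, so it served as the reference for the content of antigen-presenting cells. In whole tissue, more cells of a type and more RNA per cell cannot be told apart, and this holds for every value below. The dyes were not exchanged, so dye and strain cannot be told apart at a given probe either.

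Promoter stretches around the Y box, 1 element of the shared module, are shown for the 6 H2 genes in whose windows its letters stood, whether or not a gene followed Cd74 across the mice. H2-Ab1, H2-Ea and Cd74 are not among them. They were taken from the RefSeq windows of 250 bases before and 50 bases after each start (GRCm38.p6, the C57BL/6J sequence, which has the haplotype of the pool and not that of NOD), which held 7 of the 9 H2 genes. Capitals mark the Y box letters TGATTGG and, where they stood ahead of it in the spacing searched, the X1 box letters CCNAGNNAC.
H2-Oa (chr17:34092282-34092352, plus strand): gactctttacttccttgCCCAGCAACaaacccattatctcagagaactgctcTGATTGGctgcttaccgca
H2-DMb1 (chr17:34153076-34153146, plus strand): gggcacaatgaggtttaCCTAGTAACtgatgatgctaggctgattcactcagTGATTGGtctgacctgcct
H2-DMb2 (chr17:34145105-34145175, plus strand): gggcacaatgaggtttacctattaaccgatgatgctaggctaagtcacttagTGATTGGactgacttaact
H2-Ob (chr17:34238794-34238864, plus strand): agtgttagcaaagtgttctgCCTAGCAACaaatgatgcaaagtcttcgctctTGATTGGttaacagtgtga
H2-Aa (chr17:34287855-34287925, minus strand): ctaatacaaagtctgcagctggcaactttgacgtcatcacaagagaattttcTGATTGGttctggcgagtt
H2-Eb1 (chr17:34305754-34305824, plus strand): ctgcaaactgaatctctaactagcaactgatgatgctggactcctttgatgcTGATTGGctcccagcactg
The letters TGATTGG, searched on both strands after the promoters had been read, stood in 6 of the 7 H2 genes and in 7.80% of all 32817 promoter windows. The core ATTGG, which TGATTGG contains, stood in 37.4% of all windows and CCNAGNNAC in 17.3%. The pair with 15 to 40 bases between the starts of CCNAGNNAC and ATTGG on 1 strand stood in 3 of the 7 genes, H2-Oa, H2-DMb1 and H2-Ob, and in 0.503% of all windows. H2-DMa, with 2 windows, held TGATTGG in neither. The letters were not related to the ratios, since several probes of these genes stayed near background in red. The matches are descriptions of letters, and binding was not measured.

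The probes of H2-Ab1, the probe listed as H2-Eb1, H2-Aa probe 2 and Cd74 were higher in most NOD mice. H2-Aa probe 1, H2-DMb1 probe 2 and H2-Ob were lower in every mouse, but their red signals were well above background on no array. All 16 probes passed the filter for testing, a red signal of at least 25 on at least 4 arrays. A probe was called where it differed by 2-fold or more with an adjusted p below 0.01 (limma, Benjamini-Hochberg over 28105 probes), and 3 of the 16 were called. These were 1 higher, H2-Ab1 probe 3, and 2 lower, H2-Aa probe 1 and H2-DMb1 probe 2. Of all probes tested 1.72% were called, 0.31% higher and 1.41% lower. The mean log2 ratio was above 0 for 12 of the 16 probes and for 34.5% of all probes tested, whose median was -0.09. With so few members these counts are a description and were not tested against the background.

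**Figure D1:**
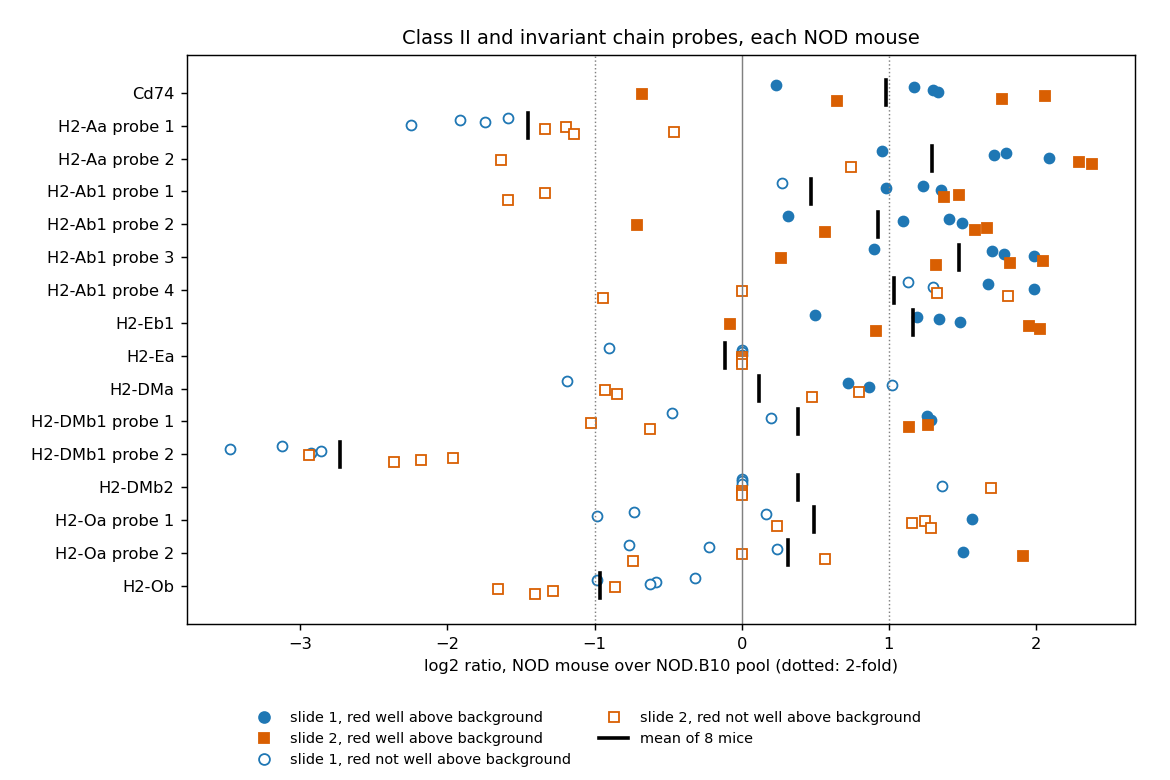
Log2 ratio of each NOD mouse over the NOD.B10 pool (x axis) for the 16 probes (y axis), with circles for slide 1, squares for slide 2, filled symbols where the red signal was well above background and black bars for the mean of 8 mice. H2-Ab1 probe 3 lay above 0 in all 8 mice, while H2-Aa probe 1, H2-DMb1 probe 2 and H2-Ob lay below 0 in all 8 with no filled symbol.

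Replicates 1 to 4 were hybridized on slide 1 and the other 4 on slide 2. Per array, 21.6% to 35.3% of the spots were well above background in red and 57.6% to 60.7% in green. Where a spot stayed at background the files hold a stand-in value derived from the noise, as they do for 42.9% to 54.0% of the red spots. Red spots had a median coefficient of variation of 16.1% to 24.8% on slide 1 and 38.2% to 63.5% on slide 2, and the grid of replicates 5, 6 and 7 was not rated good. Among the class II and Cd74 probes, 4 had a red signal well above background on all 8 arrays (H2-Ab1 probes 2 and 3, H2-Eb1 and Cd74), 7 had one on at least 4, and 5 had none on any array (H2-Aa probe 1, H2-Ea, H2-DMb1 probe 2, H2-DMb2 and H2-Ob). The acinar markers fitted the tissue label, since all 9 that were measured were well above background in red on at least 4 arrays. They were not called in either direction.

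Cd74, the invariant chain, was at 235% of the pool in the median NOD mouse. Its probe (mm8, chromosome 18, 60937790 to 60937847) had a red signal of 989.7 to 9811 and a green signal of 1422 to 2346. The log2 ratio was lowest in replicate 5, at -0.68, had a median of 1.23 and was highest in replicate 6, at 2.06. Replicates 1 and 8 were low as well, at 0.23 and 0.65, and the other 4 lay between 1.17 and 1.77. The mean was 0.98 (SD 0.885, n = 8), with 7 of 8 mice above the pool. This did not pass the threshold (limma adjusted p = 0.0561, exact sign-flip p = 0.0313). The slides did not differ beyond their spread, with means of 1.01 and 0.95 (exact permutation p = 0.914). Without replicate 5 the mean was 1.22 (limma adjusted p = 0.0164).

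H2-Ab1, the I-A beta chain, was measured by 4 probes, and their means were all above 0. Probe 3 (mm8, chromosome 17, 33877309 to 33877368), the one closest to the 3′ end of those with a position, was the brightest of all 16. Its log2 ratio was 0.27 in the lowest mouse, replicate 5, with a median of 1.74 and a highest value of 2.05 in replicate 6. No mouse was below the pool, and the mean was 1.48 (SD 0.617, n = 8), a 2.79-fold difference with a limma adjusted p of 0.00377. The call was lost when any 1 of replicates 2, 3, 4, 6 or 7 was left out, with means of 1.40 to 1.45 and limma adjusted p-values of 0.0106 to 0.0130.

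The green signal at probe 3 was not level, although 1 pool was used on every array. It ranged from 1149 to 2608, a 2.27-fold range, and followed the red signal with r = 0.977 on the log2 scale over the 8 arrays. Before dye normalization, in the background-subtracted signals, the range was 1.75-fold and r was 0.933. The same held for Cd74, with a 1.65-fold range and r = 0.867 (0.954 before dye normalization), and for H2-Eb1, with a 1.83-fold range and r = 0.850 (0.788 before). At H2-Ab1 probe 2 the range was 1.48-fold and r was 0.747 (0.379 before). Over 7386 probes that were bright in both dyes the median of this r was 0.70. The part of this in the ratios and in their relations across mice was not tested.

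Probe 2 of H2-Ab1 (mm8, chromosome 17, 33875638 to 33875697) was printed on 10 spots of each array, which gives the spotting error within an array but not the error of labeling or hybridization between arrays. The SD between the spots of an array had a median of 0.144 and was largest in replicate 5, at 0.395, against an SD of 0.825 between mice. Its lowest log2 ratio was -0.71 in replicate 5, its median 1.25 and its highest 1.67 in replicate 6. Replicate 5 was the only mouse below the pool, with all its spots between -1.24 and -0.15. The mean of 0.93 (n = 8) did not pass the threshold (limma adjusted p = 0.0533).

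Probes 1 and 4 of H2-Ab1 were dimmer and noisier. Probe 1 (mm8, chromosome 17, 33872973 to 33873032) had log2 ratios of -1.59 to 1.47, with the lowest values in replicates 8 and 5, and a mean of 0.47 (SD 1.25, limma adjusted p = 0.491), which was 0.18 with a background correction that shrinks low signals (normexp with loess). Probe 4, for which the files give no position, ranged from -0.95 to 1.99 with a mean of 1.04 (SD 1.01, limma adjusted p = 0.0693), which was 0.08 with normexp and loess. Its red signal was well above background on 2 arrays. With normexp and loess the mean of probe 2 was 0.50 and that of probe 3 was 1.17. Among the probes with a position the ratio was ordered along the gene in all 8 mice. Probe 1 was lower than probe 2 by a mean of 0.46 and probe 2 was lower than probe 3 by 0.55 on the log2 scale (exact sign-flip p = 0.00781 for each, the smallest that 8 mice allow). Brightness rose in the same order, with median green signals of 144, 382 and 1959, so position and brightness cannot be told apart. Red at probe 1 was well above background on 5 arrays, and on the others its differences rest on signals near background.

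The probe listed as H2-Eb1, the I-E beta chain, was at 240% of the pool in the median mouse. The position given for it (mm8, chromosome 17, 33922800 to 33923261) lies between those of H2-Aa and H2-Ea, but its description in the files names a NOD I-A beta mRNA, so the gene it reads is uncertain. Its red signal was well above background in all 8 mice, from 470.5 to 3245. The log2 ratio was lowest in replicate 5, at -0.08, had a median of 1.26 and was highest in replicate 7, at 2.03. With 7 of 8 mice above the pool, the mean was 1.17 (SD 0.713, n = 8). It reached 2-fold but not the threshold on p (limma adjusted p = 0.0150). Without replicate 5 the mean was 1.34 and the probe passed (limma adjusted p = 0.00810).

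The alpha chain of I-A gave opposite readings at its 2 probes. H2-Aa probe 2 (mm8, chromosome 17, minus strand, 33892022 to 33892081), the one closer to the 3′ end, was at 337% of the pool in the median mouse, with log2 ratios from -1.64 in replicate 5 to 2.38 in replicate 7 and a median of 1.75. Replicate 5 was the only mouse below the pool, with a red stand-in value of 39.4, against 187 to 948.5 in the others. The mean was 1.29 (SD 1.32, n = 8, limma adjusted p = 0.0809), and 1.71 without replicate 5, where the probe passed (limma adjusted p = 0.00647). With normexp and loess the mean was 0.57 (limma adjusted p = 0.0392).

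H2-Aa probe 1 (mm8, chromosome 17, minus strand, 33892680 to 33892739), 658 bases nearer the 5′ end in the genome, was lower than the pool in all 8 mice. Its log2 ratio ranged from -2.25 in replicate 4 to -0.46 in replicate 7, with a median of -1.46. All 8 red signals were stand-in values, 28.9 to 100.1, while the green signal of the pool was well above background on all 8 arrays, at 132 to 186. The mean of -1.45 (SD 0.550, n = 8, limma adjusted p = 0.00281) is therefore set by the stand-in values. It moved to -0.12 with normexp and loess, which ended the call, as did leaving out replicate 3 (limma adjusted p = 0.010003). The slide means were -1.87 and -1.03, and since every red value behind them is a stand-in they are not compared further.

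Within the same mouse, the log2 ratio of H2-Aa probe 1 was below that of probe 2 in 7 of 8 mice (exact sign-flip p = 0.0156), by a difference whose size rests on the stand-in values of probe 1. The exception was replicate 5, where both probes were at stand-in values.

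H2-Ea, the I-E alpha chain, was not detected above background. Red at its probe (mm8, chromosome 17, minus strand, 33952105 to 33952164) stayed at stand-in values throughout, and green was well above background on 1 array. The files set the log2 ratio to 0 in 7 mice and to -0.90 in replicate 1. The mean of -0.11 (limma adjusted p = 0.499) turned to 2.27 and 1.76 under the scalings that use the signals directly, so no direction can be given.

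**Figure D2:**
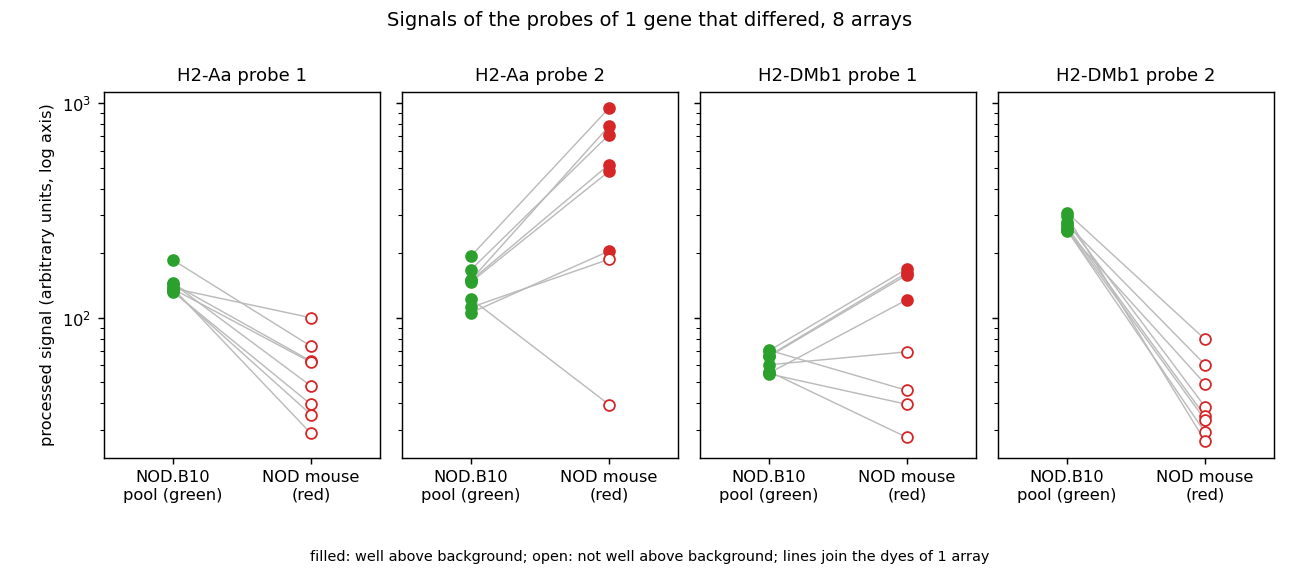
Processed signal (y axis, log scale, arbitrary units) of the NOD.B10 pool in green and of the NOD mouse in red for both probes of H2-Aa and of H2-DMb1, with lines joining the dyes of 1 array and open symbols where a signal was not well above background. The green signals were well above background at all 4 probes, while the red signals of H2-Aa probe 1 and H2-DMb1 probe 2 were open on all 8 arrays.

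The genes for H2-DM, which loads peptide, gave 1 call, at a single probe of H2-DMb1. H2-DMa (mm8, chromosome 17, 33747809 to 33748372) had log2 ratios of -1.19 to 1.02 and a median of 0.60, with 5 of 8 mice above the pool. Replicates 1, 5 and 7 were the low ones, from -1.19 to -0.85, and 2 of these 3 red signals were stand-in values. Over the 8 arrays red was well above background on 2. The mean of 0.12 (SD 0.930, limma adjusted p = 0.849) gave no direction, since it was -0.01 without replicate 3.

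H2-DMb1, an H2-DM beta chain, was again split between probes. Probe 1 (mm8, chromosome 17, 33766456 to 33766515) had log2 ratios of -1.02 to 1.28 with 5 of 8 mice above the pool and a mean of 0.38 (SD 0.977, limma adjusted p = 0.472). Probe 2 (mm8, chromosome 17, 33767055 to 33767114), 599 bases further toward the 3′ end, had the lowest ratio of the 16 probes. It ranged from -3.48 in replicate 2 to -1.96 in replicate 6, with a median of -2.89, or 13.5% of the pool. The green signal was 253 to 309 on all arrays and the red signal 26.7 to 79.5, well above background on none and a stand-in value on 3. The mean was -2.73 (SD 0.514, n = 8) with a limma adjusted p of 0.000305. Since no red signal rose well above background, background sets its size and it is not a measured fold.

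The ratios of the 2 probes of H2-DMb1 did not overlap. Probe 1 was above probe 2 in 8 of 8 mice (exact sign-flip p = 0.00781), by a difference whose size is likewise set by red values at background. The call at probe 2 held without each mouse (means of -2.84 to -2.62). It was lost with normexp and loess, where the mean was -0.28. The transcripts of H2-DMb1 and H2-DMb2 were 94.4% identical over 1255 aligned bases (GENCODE M21), so signal can be shared between their probes. H2-DMb2 itself (mm8, chromosome 17, 33758478 to 33758538) was well above background nowhere in either dye. The files set its log2 ratio to 0 in 6 mice, and it was 1.36 and 1.70 in replicates 4 and 5.

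The H2-O genes, the restraint on H2-DM, gave no call. H2-Oa was measured by 2 probes whose starts lie 69 bases apart (mm8, chromosome 17, 33705473 to 33705533 and 33705542 to 33705601). Their log2 ratios ranged from -0.98 to 1.57 and from -0.77 to 1.91, with means of 0.49 and 0.31 (limma adjusted p = 0.338 and 0.534). The means of the 2 probes did not differ beyond the spread (difference 0.18, exact sign-flip p = 0.602). The red signal was well above background on 1 array for probe 1 and on 2 for probe 2.

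H2-Ob (mm8, chromosome 17, 33852080 to 33852311) had log2 ratios of -1.65 to -0.32 and a median of -0.92, below the pool in all 8 mice, a direction that turned to 0.41 with median-centered signals. Its mean was -0.96 (SD 0.458, n = 8) with a limma adjusted p of 0.00609, just under 2-fold. It passed the fold threshold without replicate 1, at -1.06. The red signal was a stand-in value in 7 mice and well above background in none, and the green signal was 36.5 to 57.9. Among the 397 probes called lower over the whole array, 334, or 84.1%, had a red signal well above background on no array, as H2-Aa probe 1 and H2-DMb1 probe 2 did.

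The comparison with Cd74 asks whether a class II probe moved apart from the content of antigen-presenting cells. By limma across all probes none of H2-Ab1 probe 2, H2-Ab1 probe 3, H2-Eb1 and H2-DMa differed from Cd74 past the threshold (adjusted p = 0.891, 0.190, 0.621 and 0.0264). The mean log2 ratio of H2-Ab1 probe 2 minus that of Cd74 was -0.05, with a 95% interval of ± 0.18 and an exact sign-flip p of 0.516, and -0.51 with normexp and loess. H2-Ab1 probe 3 exceeded Cd74 by 0.50 (SD 0.327, 7 of 8 mice, exact sign-flip p = 0.0156) and H2-Eb1 by 0.19 (SD 0.215, 7 of 8 mice, exact sign-flip p = 0.0391). For H2-Aa probe 2 the difference was 0.31 with a 95% interval of ± 0.47 (exact sign-flip p = 0.172). These p-values are not adjusted for the 15 probes compared. With normexp and loess the difference of H2-Ab1 probe 3 was 0.15, and those of H2-Eb1 and H2-Aa probe 2 turned in sign, to -0.12 and -0.44. Against the median of antigen-presenting cell markers in place of Cd74, H2-Ab1 probe 3 was at 1.21 (limma adjusted p = 0.000700) and H2-Eb1 at 0.90 (limma adjusted p = 0.00433), so these differences depend on the reference. By the same reference H2-Aa probe 2 was at 1.03 and H2-Ab1 probe 2 at 0.66 (limma adjusted p = 0.0243 and 0.0219).

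Below Cd74 in all 8 mice were H2-DMa, H2-Ob, H2-Aa probe 1 and H2-DMb1 probe 2. For H2-DMa, with red well above background on 2 arrays, the listed difference was -0.86, and against the marker median it was -0.15 (limma adjusted p = 0.640). The other 3 had red signals well above background on no array. The distances of these 4 from Cd74 have a direction (exact sign-flip p = 0.00781 for each), but their size rests wholly or largely on signals near background. Over all probes tested the median difference from Cd74 was -1.07, so lying below Cd74 was not particular to class II probes. H2-DMb1 probe 1 was lower than Cd74 in 7 of 8 mice, by a mean of 0.60 (exact sign-flip p = 0.0234). This did not pass the threshold in limma (adjusted p = 0.116), and 2 of its 8 red values were stand-in values. The difference was -0.83 with normexp and loess and -0.07 with median-centered signals. Against the marker median it turned to 0.11 (limma adjusted p = 0.704), so its direction depends on the reference. In limma across all probes, relative to Cd74, 4 of the 15 were called, all lower, H2-Aa probe 1, H2-DMb1 probe 2, H2-Ob and H2-Ea. Nothing is read from this count, since 54.2% of all probes tested were called in that comparison.

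**Figure D3:**
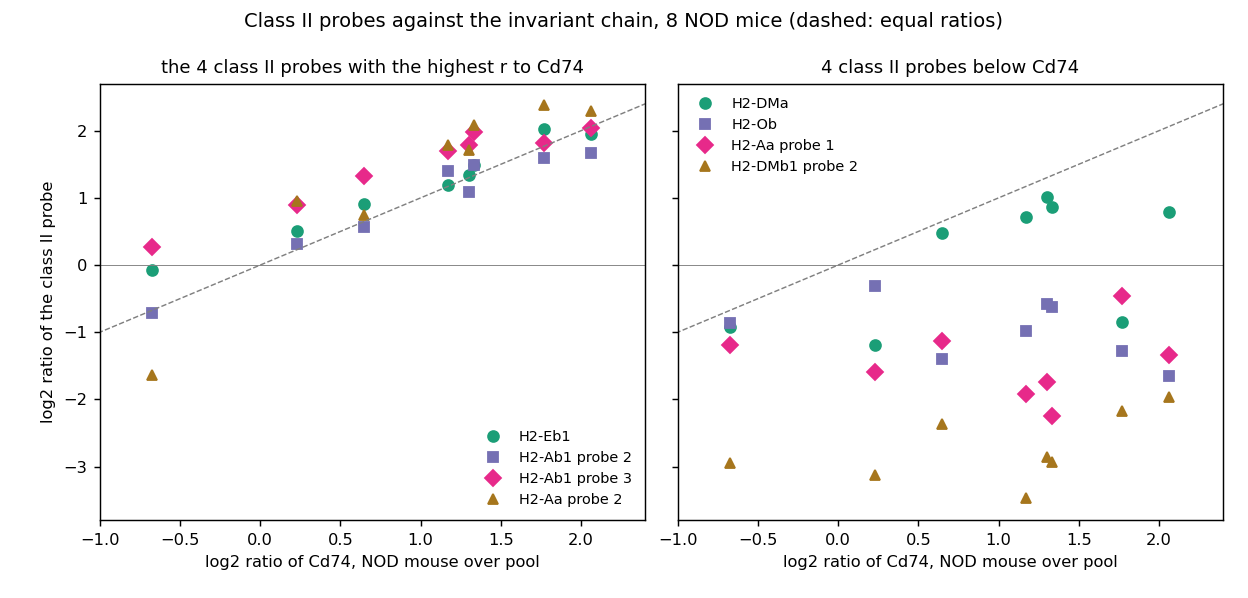
Log2 ratio of class II probes (y axis) against that of Cd74 (x axis) in the 8 NOD mice, 1 symbol for each probe and mouse, with the dashed line at equal ratios. In the left panel H2-Eb1, H2-Ab1 probes 2 and 3 and H2-Aa probe 2 rise with Cd74 from replicate 5, at -0.68, to replicate 6, at 2.06, and in the right panel H2-DMa, H2-Ob, H2-Aa probe 1 and H2-DMb1 probe 2 lie below the line in all 8 mice.

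Across the 8 mice the class II probes with red well above background on all 8 arrays followed Cd74 closely. Pearson's r was 0.987 for H2-Eb1 (exact permutation p = 9.92e-05, Spearman's rho = 0.976, p = 0.000397), 0.972 for H2-Ab1 probe 2 (exact permutation p = 0.000149, rho = 0.976, p = 0.000397) and 0.968 for H2-Ab1 probe 3 (exact permutation p = 0.000322, rho = 0.976, p = 0.000397). It was 0.945 for H2-Aa probe 2 (exact permutation p = 0.000570, rho = 0.929, p = 0.00223), whose red was well above background on 6 arrays and a stand-in value in replicate 5. Without replicates 1 and 5, which lay farthest from the median of Cd74, r was 0.957, 0.875, 0.856 and 0.907 in the same order. With slide means removed it was 0.991, 0.985, 0.981 and 0.975. Over 9896 probes with red well above background on at least 6 arrays the median r with Cd74 was -0.02, its quartiles were -0.31 and 0.28, and its highest 5% began at 0.66. At or above the 0.968 of H2-Ab1 probe 3 were 7 probes, these 3 class II probes included. In all, 17 such relations were computed, all points share the pool and the array, and the p-values were not adjusted.

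Among the other probes, H2-DMb1 probe 1 reached r = 0.873 (exact permutation p = 0.00290, rho = 0.810, p = 0.0218), and 0.728 without the 2 farthest mice. H2-Ab1 probe 1, well above background in red on 5 arrays, had r = 0.805 (exact permutation p = 0.0193, rho = 0.905, p = 0.00456), and 0.790 without these mice. For H2-Ab1 probe 4 r was 0.605 (exact permutation p = 0.110, rho = 0.714, p = 0.0576) and for H2-Oa probe 2 it was 0.645 (exact permutation p = 0.0832, rho = 0.833, p = 0.0154). H2-Oa probe 1 had r = -0.04 (exact permutation p = 0.934, rho = 0.05, p = 0.935). H2-Aa probe 1 had r = 0.01 (exact permutation p = 0.986, rho = -0.05, p = 0.935) and H2-Ob r = -0.45 (exact permutation p = 0.270, rho = -0.45, p = 0.267), both with stand-in red signals in most mice. H2-DMb1 probe 2, with red well above background on no array, had r = 0.487 (exact permutation p = 0.223, rho = 0.690, p = 0.0694). With slide means removed r was 0.06 for H2-Aa probe 1, -0.773 for H2-Ob and 0.799 for H2-DMb1 probe 2. H2-DMa had r = 0.56 (exact permutation p = 0.152, rho = 0.60, p = 0.132), which was -0.24 without the 2 farthest mice and thus rests on them.

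Among the same 9896 probes, those most like Cd74 over the 8 mice were H2-Eb1, H2-Q1 (r = 0.982), H2-Ab1 probe 2, Ergic2 (r = 0.972) and H2-T23 (r = 0.969). H2-Q1 and H2-T23 are class I genes of the same complex, and their means were below the pool, at -0.61 and -0.82 (limma adjusted p = 0.0367 and 0.0143). Most like H2-Aa probe 2 were H2-Ab1 probe 2 (r = 0.973), H2-Q1 (r = 0.973), Pak4 (r = 0.967), Rgs2 (r = 0.967) and Cyfip1 (r = 0.967). Likeness here is the ranking of r only.

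Of 118 genes tested in 13 lists of pathway and cell type genes, each at its brightest probe, limma and the plain statistic called 0. Of the 118, 43 had an unadjusted limma p under 0.05, a share near the 35.8% of all 18505 genes tested in the same way. Over all these genes the median log2 ratio was -0.08, 36.6% had means above 0, and 72 were called higher and 239 lower. At the dimmer probes of the list genes limma called 1, a probe of the adaptor gene Ap2m1, at -1.11 and lower in 8 of 8 mice with red well above background on no array (limma adjusted p = 0.00453). Counts of means above 0 in the lists are to be read against the 36.6%, and were not tested. Of the transactivator list 10 of 11 genes were tested, 4 with means above 0, near the share over all genes, and a median of -0.01. Ciita (listed as C2ta), the transactivator itself, stood out in that list with log2 ratios of -0.17 in replicate 1 to 1.75 in replicate 4. Its mean was 0.96 (SD 0.712, 7 of 8 mice above the pool), which did not pass the threshold (limma adjusted p = 0.0300). Its r with Cd74 was 0.803 (exact permutation p = 0.0157, rho = 0.690, p = 0.0694), but 0.402 without the 2 farthest mice, so the relation rests on them. The next in size were Ep300, a coactivator, at 0.66 with red well above background on no array (limma adjusted p = 0.218), Creb1 at -0.37 and Nfyc at -0.32, both factors that bind the module, which did not pass either.

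Of the 9 genes of the interferon-gamma input to Ciita, 6 had means above 0, with a median of 0.05. Socs1, an inhibitor of this signal, had a mean of 0.95 (limma adjusted p = 0.0662) and Ifng, the ligand, one of 0.66, with a red signal well above background on no array, while Jak2 and Ifngr1 were at -0.33 and -0.31. Among the 11 endosomal genes, 7 had means above 0 and the median was 0.07. Ctss, the protease that trims the invariant chain to CLIP in antigen-presenting cells, was highest, from -0.39 in replicate 5 to 1.93 in replicate 2, with a mean of 1.00 (SD 0.708, limma adjusted p = 0.0250). Below 2-fold but with adjusted p-values under 0.01 were Ctsl, a related protease, at -0.42 and lower in 8 of 8 mice (limma adjusted p = 0.00336), and Sppl2a, which clears the remaining invariant chain stub, at 0.41 and higher in 8 of 8 (limma adjusted p = 0.00762).

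Of the 10 genes of class II trafficking and ubiquitin ligases, 4 had means above 0 and the median was -0.01. Wdfy4, which serves antigen handling in dendritic cells, was higher in 8 of 8 mice at 0.76 but short of 2-fold (limma adjusted p = 0.00891). March1, the ligase that removes class II from the surface, was at -0.33 with red well above background on no array (limma adjusted p = 0.515), Cd9 at -0.36 and Cd63 at 0.26. The 5 partners of the invariant chain as a receptor had a median of -0.07, and 1 had a mean above 0. Among them Cxcr4 and Cxcr2, listed at -0.31 and -0.15, had red well above background on no array and stand-in values in 7 and 8 mice, so these are not measured differences. Of the costimulatory ligands 5 of 9 were tested, and Cd83 had the largest mean, 0.75 (limma adjusted p = 0.0425) and was the only one with red well above background on at least 4 arrays. Their median of 0.45 is the mean of Cd274, which had red well above background on no array, was set to 0 by the files in 6 mice and reached 3.15 in replicate 7. Of the T cell ligands and coreceptors 6 of 7 were tested, with a median of 0.14, and Cd3e was higher in 8 of 8 mice at 0.61 (limma adjusted p = 0.00762), while Icos and Lag3 were at -0.49 and -0.41 with red well above background on no array.

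**Figure D4:**
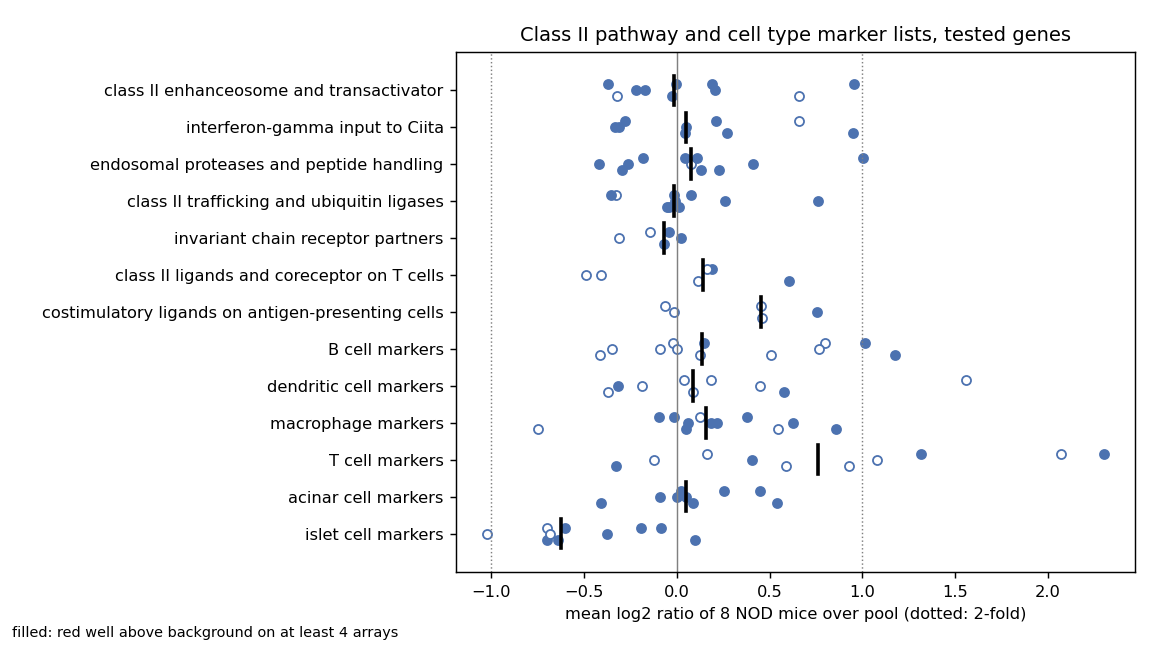
Mean log2 ratio of 8 NOD mice over the pool (x axis) for each tested gene of the 13 lists (y axis), with filled circles where the red signal was well above background on at least 4 arrays and black bars for the list medians. The list medians lie between -0.62 for islet cell markers and 0.76 for T cell markers, and Ciita and Ctss stand at 0.96 and 1.00 in their lists.

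Markers of the cells that carry class II are given beside these genes, and their part in the class II values was not tested. Of 12 B cell markers 7 had means above 0, the median was 0.14 and none passed the threshold. The 3 with red well above background on at least 4 arrays were Cd79b at 1.18, Ms4a1 at 1.01 and Blnk at 0.15, with a median of 1.01. The red signal was well above background on no array for 9 of the 12, among them Blk, a kinase of B cells, and Cd22 and Cr2, whose listed means were 0.80 and 0.77, and Pax5 and Cd79a, listed at -0.41 and -0.35. Cd79b was below the pool in replicates 1 and 5, at -1.54 and -0.22, and Ms4a1 likewise, at -1.18 and -1.41, the mice in which Cd74 was lowest. Of 12 macrophage markers 9 had means above 0 and the median was 0.16. C1qb, a complement chain made by macrophages, was higher in 8 of 8 mice, from 0.27 to 1.30, with a mean of 0.86 (limma adjusted p = 0.00237) that is under 2-fold. Mertk, a receptor for dying cells, had the next largest mean and the opposite sign, -0.75, with 6 of 8 mice below the pool and red well above background on no array (limma adjusted p = 0.205). Fcgr1 was at 0.63, and Cd14 and Adgre1 were at -0.10 and -0.02.

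Of the dendritic cell markers 9 of 12 were tested, with a median of 0.09. Xcr1, a receptor of cross-presenting dendritic cells, was higher in 8 of 8 mice at 0.58 (limma adjusted p = 0.00242), and Itgax had a mean of 1.56 with a red signal well above background on 1 array (limma adjusted p = 0.0319). Flt3 was at 0.45 and Batf3 at -0.37, and neither passed. Zbtb46 (listed as Btbd4), with red well above background on 5 arrays, was at -0.32 and below the pool in 5 of 8 mice (limma adjusted p = 0.341). It and Xcr1 were the 2 tested dendritic cell markers with red well above background on at least 4 arrays. The median of the 14 B cell, dendritic cell and macrophage markers with red well above background on at least 4 arrays had r = 0.823 with Cd74 (exact permutation p = 0.0103, rho = 0.524, p = 0.197), and 0.521 without the 2 farthest mice, so this relation rests on them. It ranged from -0.23 in replicate 5 to 0.60 in replicate 2, a narrower range than that of Cd74.

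T cell markers had the highest list median, 0.76, with 8 of 10 means above 0. Lck and Cd3d were above the pool in 7 of 8 mice each (limma adjusted p = 0.0128 and 0.0101). Their listed means of 2.30 and 2.07 are no measured folds, since the pool was well above background on 2 arrays for Lck and on 5 for Cd3d, and red on 4 and 3. Cd5 was at 1.32 and Cd3g at 1.08, with red well above background on 4 and 2 arrays. Opposite in sign were Cd8b1, with red well above background on 7 arrays, at -0.33 and below the pool in 6 of 8 mice (limma adjusted p = 0.309), and Cd8a at -0.12. Islet cell markers had the lowest median, -0.62, with 1 of 10 means above 0. It was -0.38 over the 7 with red well above background on at least 4 arrays. Ppy, the pancreatic polypeptide hormone, was lowest at -1.02 (limma adjusted p = 0.0969), ahead of Gcg and Pdx1, both at -0.70. Red was well above background on 2 arrays for Ppy, on 1 for Pdx1 and on 8 for Gcg. The 9 acinar markers had a median of 0.05, with Ctrb1 at 0.54 and Pnlip at 0.45, both digestive enzymes above the pool in 8 of 8 mice (limma adjusted p = 0.0390 and 0.0230), and Rbpjl, an acinar transcription factor, at -0.41 and below it in 8 of 8 (limma adjusted p = 0.00169). The remaining markers of the lists lay within the ranges shown in the plot of the lists.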

How the data were processed

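Each of 8 arrays (Agilent whole mouse genome, probe positions on mm8) was deposited as 1 text file per NOD mouse. The authors made the files with Agilent Feature Extraction, version 10.7.3.1. The deposited log10 ratio of red over green stands beside an intensity for each dye, the processed signal, which was background-subtracted and dye-normalized, and beside flags for signals well above background, saturated, non-uniform and stand-in values. No spot was saturated.

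The log10 ratio was converted to log2 and averaged over the spots of a probe. The test covered the 28105 probes that carry a gene symbol and reach a red processed signal of 25 on 4 arrays or more. It was a one-sample test against 0 with limma (version 3.58.1, R 4.3.3) and Benjamini-Hochberg adjustment, and calls need 2-fold and an adjusted p under 0.01. Single probes were also tested with all 256 sign flips, two-sided, slides by exact permutation and relations across mice by exact permutation of the pairings. The 8 mice are separate animals, each on its own array, and the pool is a single sample. The p-values therefore measure the spread between NOD mice together with that of labeling and arrays, and not the spread between NOD.B10 mice. On simulated data with 188 of 28105 probes changed 3-fold, limma recovered 129 and made 0 false calls. The simulated noise was normal, centered on 0 and independent between probes. It held no stand-in values and no error shared by an array, so these counts do not carry over to probes near background. Python 3.11.15, numpy 2.4.6, pandas 2.3.3, scipy 1.17.1, matplotlib 3.10.9 and Biopython 1.88 made the alignments and plots.

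Named are every probe of the 10 genes, of each list up to 4 genes with the largest mean in either direction, and the 5 probes most like Cd74 and H2-Aa probe 2. Blk, Blnk, Pax5, Cd79a, Zbtb46, Cd8a, Cd8b1, Cd14, Adgre1, Cd274 and Ap2m1 were named beyond this rule, after their values were seen. The genes, lists and tests were chosen with earlier results of these data known. Alternatives were a plain statistic without moderation, testing without the signal filter, red well above background on at least 4 arrays, leaving out non-uniform or saturated spots, normexp (offset 50) with loess, median-centered signals (background-subtracted, with a floor at the SD of negative controls), the ratio of processed signals, a slide covariate, leaving out each mouse, a looser adjusted p of 0.05 and a fold of 1.5. Precision is limited by the number of arrays.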

Additional observations from a re-analysis of the deposited data

Results flagged for a closer look

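At H2-Aa probe 2 the log2 ratio of replicate 5 was -1.64 and stood apart from the other 7 mice, the nearest of which was at 0.74. At H2-Ea replicate 1 stood apart at -0.90, while the files give 0 for the other 7 mice. Of 16 probes checked in this way, chance alone flags about 1 in 20. In replicate 5 Cd74 and H2-Ab1 probes 2 and 3 were also at their lowest, red spots varied with a median coefficient of 59.0% and the grid was not rated good. Replicates 6 and 7, which held the highest ratios of Cd74, H2-Eb1 and H2-Aa probe 2, had such grids as well, with coefficients of 56.0% and 63.5%. The part of these in the values was not tested.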

How the results depend on the processing

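No paired analysis was possible because the 8 arrays form 1 group against a single pool, so the numbers 1 to 8 pair nothing. The main counts over the 16 class II and Cd74 probes were 1 higher and 2 lower. Requiring red well above background on at least 4 arrays gave 2 higher and 0 lower, the ratio of processed signals 3 higher, an adjusted p of 0.05 2 higher, and normexp with loess 0 lower. Median-centered signals gave 8 higher, among them Cd74 and also H2-Ea and H2-DMb2, whose red was well above background on no array. Leaving out 1 mouse gave 0 to 3 higher (3 without replicate 5, 0 without replicate 2, 3, 4, 6 or 7) and 1 to 3 lower (1 without replicate 3, 3 without replicate 1). Cd74 was 1.22 with median-centered signals, past the threshold, and 0.82 to 1.22 with 1 mouse left out. Relative to Cd74 the main count of 4 lower became 0 with the plain statistic, 0 with the red filter, 2 with median-centered signals and 3 to 5 with 1 mouse left out, and the marker median in place of Cd74 gave 1 higher, H2-Ab1 probe 3. Another Cd74 probe was not run, as the array has 1.

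Signs turned as follows. H2-Ea was 2.27 with median-centered signals and 1.76 with the ratio of processed signals, and H2-Ob was 0.41 with median-centered signals. H2-DMa was -0.014 to 0.301 with 1 mouse left out, below 0 without replicate 3. Relative to Cd74, H2-Ea was 1.05 and 0.78 and H2-DMb2 0.97 and 0.32 under those 2 scalings. Also relative to Cd74, normexp with loess turned H2-Ab1 probe 4 to -0.94, H2-Aa probe 2 to -0.44 and H2-Eb1 to -0.12, while against the pool these were 0.08, 0.57 and 0.90, down from 1.04, 1.29 and 1.17. Relative to the marker median, H2-Ab1 probe 2 was 0.66, H2-DMb2 0.12, H2-Oa probe 1 0.23, H2-Oa probe 2 0.046, H2-Ab1 probe 1 0.21 and H2-DMb1 probe 1 0.11. H2-Ab1 probe 4 relative to Cd74 ranged from -0.065 to 0.292 with 1 mouse left out. The cause was not tested.

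Of all probes called, 18.0% were higher, against 68.4% with the red filter, 71.6% with normexp and loess, 81.6% with median-centered signals and 83.4% with the ratio of processed signals, and the number called was 484 against 133, 67, 7087 and 4160. Median-centered signals moved the median of all probes from -0.09 to 0.07. Dim red signals, with 5 of 16 class II and Cd74 probes well above background on no array, limit what can be said of H2-Ea, H2-DMb2, H2-Ob and the 2 probes called lower, H2-Aa probe 1 and H2-DMb1 probe 2.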
